A study of Mus musculus with 8 samples.

Results

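The 8 interferon regulatory factor genes Irf1, Irf2, Irf3, Irf4, Irf5, Irf7, Irf8 and Irf9 were described in cultured mouse macrophages with and without a load of modified lipoprotein. They were picked by gene symbol, 8 of 19938 genes measured, and all 8 had a probe set that names no other gene. Irf1 had 2 such probe sets, and the one with the higher mean over the 8 arrays stood for it. The family and the comparison were chosen with earlier results of these arrays known, so the differences of the factors between the groups are given as a description: their standard errors and intervals give the precision, and no test of the factors is offered.

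C57BL/6J mice were injected with thioglycollate, an irritant that draws monocytes into the peritoneal cavity, and on day 5 the macrophages were washed out and cultured in DMEM with serum. Both groups were therefore elicited, wild-type cells in culture; the unloaded group (4 arrays) received no added agent and the acLDL group (4 arrays) received acetylated low-density lipoprotein, which scavenger receptors take up and which fills the cell with cholesterol. Dose and duration are not settled, because the labels give 20 µg/mL for 3 days in the sample protocols and 50 µg/mL for 2 days in the series description. Each array was labelled a biological replicate, without saying how many mice went into a culture, so the spread between arrays is the only error available.

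Interferon regulatory factors share a DNA-binding domain that reads GAAA repeats. IRF3, IRF5 and IRF7 rest in the cytoplasm until receptors for microbial nucleic acids or lipopolysaccharide activate kinases that phosphorylate them, after which they switch on type I interferon and inflammatory cytokine genes. Secreted interferon then acts through its receptor on STAT2 and IRF9, which help to drive the interferon-stimulated genes, Irf7 among them. IRF1 and IRF2 bind the same sites with opposite effects at many genes, and IRF4 and IRF8, largely kept to blood cells, work with the macrophage factor PU.1.

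Values are log2 expression from arrays, so a difference of 1 is a 2-fold change, and levels of different genes are not set against each other because probes differ in brightness. A background was taken from the olfactory receptor genes, which serve the sense of smell: the 95th percentile of their mean levels was 6.13. By that measure 7 of the 8 factors were above background on all 8 arrays, and Irf4 on 0 of 8. All 10 markers of macrophages that were listed also had means above it, Cd68 standing at 12.93 ± 0.03 on the unloaded and 12.85 ± 0.04 on the acLDL arrays (SD, n = 4).

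Irf7, Irf5, Irf2, Irf3 and Irf8 were higher in acLDL-loaded cells, with every loaded array above every unloaded one, whereas Irf1, Irf4 and Irf9 overlapped between the groups. In the limma fit over all 19938 genes, at an adjusted p of 0.05, 12.9% of genes were called higher with acLDL and 10.5% lower (19.7% and 14% of the 11609 genes above background). These 5 factors were among the genes called higher, and with unloaded arrays 1 and 4 alone 4 were, without Irf8. The groups lay apart with acLDL higher in 14% of all genes and with acLDL lower in 11.6%. Since this contrast was in view when the family was chosen, nothing is read from these counts against those shares. The median log2 difference of the 8 was 0.31, against -0.003 for all genes. In RNA from whole cultures, fewer cells of a type and less RNA per cell cannot be told apart.

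**Figure D1:**
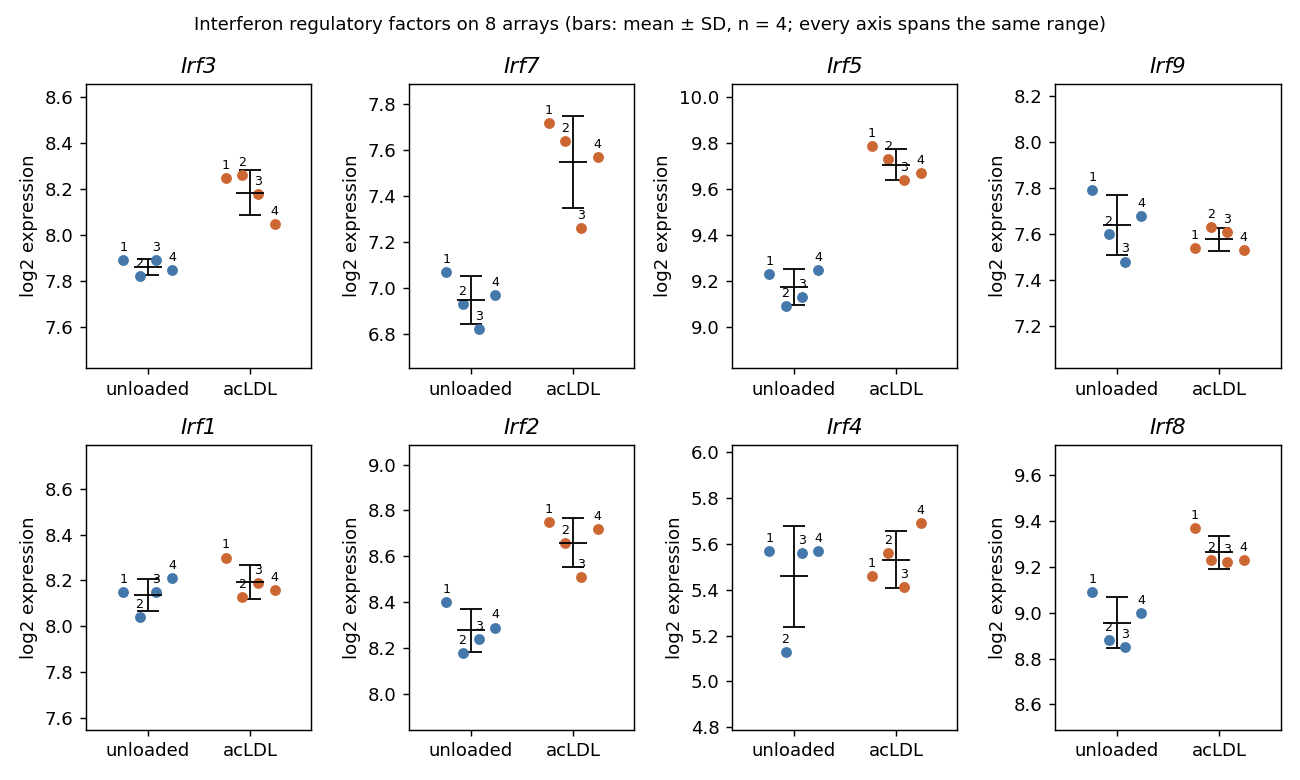
Log2 expression of the 8 factors on each array, numbered by replicate, with blue points for unloaded and orange points for acLDL cells; black bars are the mean ± SD of 4 arrays, and every panel spans the same range of log2 units. In Irf3, Irf7, Irf5, Irf2 and Irf8 the 4 orange points lie above the 4 blue ones, and in Irf9, Irf1 and Irf4 they overlap.

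Irf7, Irf5 and Irf3 are the factors that sensors activate. Irf7, the inducible factor that drives most interferon-alpha genes, read 7.07, 6.93, 6.82 and 6.97 on unloaded arrays 1 to 4 and 7.72, 7.64, 7.26 and 7.57 on acLDL arrays 1 to 4. The loaded arrays were all higher, but array 3 stood well below the other three and only 0.20 above the highest unloaded array. The group means were 6.95 ± 0.10 and 7.55 ± 0.20 (log2, SD, n = 4), a difference of 0.60 ± 0.09 (SE), or 1.52-fold.

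Irf5, which carries signals from Toll-like receptors to cytokine genes such as Il12b and Tnf, had the widest gap between the groups. Its unloaded arrays read 9.23, 9.09, 9.13 and 9.25 and its acLDL arrays 9.79, 9.73, 9.64 and 9.67. The lowest loaded array was 0.38 above the highest unloaded one, and the difference of means was 0.53 ± 0.07 (log2, SE), or 1.45-fold. The differences of Irf7 and Irf5 lay within their errors of each other, and their order turned (0.50 and 0.51) with a trend over gene length removed, as described further on.

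Irf3, the constitutively expressed factor that starts interferon-beta transcription, read 7.89, 7.82, 7.89 and 7.85 in unloaded cells, the tightest group of any factor, and 8.25, 8.26, 8.18 and 8.05 in acLDL cells. All loaded arrays were higher, array 4 by the least. The difference was 0.32 ± 0.06 (log2, SE), or 1.25-fold. Distances within an array are free of an offset common to all its genes, but not of the trend over gene length. The distance of Irf5 from Irf3 was wider in acLDL cells by 0.21 ± 0.07 (log2, SD, n = 4), and the groups lay apart. That of Irf7 from Irf3 was wider by 0.28 ± 0.19, but acLDL array 3, at 0.01, lay inside the unloaded range of -0.16 to 0.09.

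Irf9, the DNA-binding subunit of the complex with STAT2, was the only factor whose mean was lower in loaded cells, and its groups overlapped fully. Unloaded arrays read 7.79, 7.60, 7.48 and 7.68, and the 4 acLDL arrays, at 7.54, 7.63, 7.61 and 7.53, all lay inside that range. The difference was -0.06 ± 0.07 (log2, SE), with a 95% interval from -0.21 to 0.09, and its sign turned (0.04) with unloaded arrays 2 and 3 alone. Within arrays, the distance between Irf7 and Irf9 was wider in acLDL cells by 0.66 ± 0.23 (log2, SD, n = 4), against an SD of 0.03 among unloaded arrays. Irf7 and Irf9 thus changed unequally, by 0.88, 0.70, 0.34 and 0.72 on acLDL arrays 1 to 4.

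Irf1 and Irf2 are the activator and the repressor that compete for the same sites. Irf1 read 8.15, 8.04, 8.15 and 8.21 in unloaded and 8.30, 8.13, 8.19 and 8.16 in acLDL cells, so that only acLDL array 1 lay above all unloaded arrays. The difference was 0.06 ± 0.06 (log2, SE), with a 95% interval from -0.08 to 0.20. The second Irf1 probe set, which the choice by brightness left out, was dimmer, at a mean of 6.31 over the 8 arrays, and differed by 0.07.

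Irf2 read 8.40, 8.18, 8.24 and 8.29 in unloaded and 8.75, 8.66, 8.51 and 8.72 in acLDL cells. The groups were 0.11 apart at their nearest, between unloaded array 1 and acLDL array 3. The difference was 0.38 ± 0.07 (log2, SE), or 1.30-fold. Within arrays, the distance of Irf2 from Irf1 was wider in acLDL cells by 0.32 ± 0.11 (log2, SD, n = 4), against an SD of 0.08 among unloaded arrays.

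Irf8, which directs the development of monocytes and macrophages with PU.1, read 9.09, 8.88, 8.85 and 9.0 in unloaded and 9.37, 9.23, 9.22 and 9.23 in acLDL cells. Loaded array 1 stood above the other loaded arrays, which were nearly equal, and the nearest arrays of the groups were 0.13 apart. The difference was 0.31 ± 0.07 (log2, SE), or 1.24-fold. With unloaded arrays 1 and 4 alone it was 0.22, and with unloaded arrays 2 and 3 alone it was 0.40.

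Irf4, which mouse macrophages use for alternative activation and plasma cells for antibody secretion, was below background everywhere. It read 5.57, 5.13, 5.56 and 5.57 in unloaded and 5.46, 5.56, 5.41 and 5.69 in acLDL cells. Its difference of 0.07 ± 0.10 (log2, SE) is one between values that the array cannot tell from background, so it says little about Irf4 RNA. Within arrays, the distance of Irf8 from Irf4 differed by 0.24 ± 0.17 (log2, SD, n = 4), with overlapping groups.

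**Figure D2:**
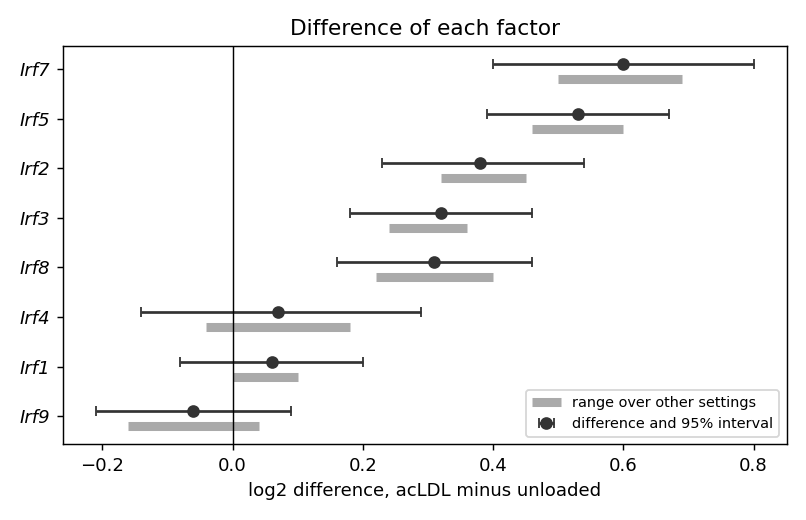
Log2 difference of each factor, acLDL minus unloaded. Points and thin lines are the difference and its 95% interval from the limma fit (4 against 4 arrays), and grey bars are the range of the difference over 19 other ways of processing the arrays, less the filter on dim genes for Irf4, which it removes. The grey bars of Irf7, Irf5, Irf2, Irf3 and Irf8 stay above 0, those of Irf4 and Irf9 cross it, and that of Irf1 begins at 0.00.

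Signal on these arrays varied with gene length, in a way that differed between arrays and in part followed the groups. The correlations below were negative on every acLDL array and positive only on unloaded arrays 1 and 4. Across 11581 genes above background, the Spearman correlation of an array's deviation with genomic span was 0.23, -0.03, -0.05 and 0.21 on unloaded arrays 1 to 4 and -0.12, -0.05, -0.20 and -0.01 on acLDL arrays 1 to 4. The genomic span was 3317 bp for Irf7, 5201 bp for Irf3 and 107714 bp for Irf2. With the trend removed, an adjustment chosen after seeing the data, the difference was 0.50 for Irf7, 0.51 for Irf5, 0.24 for Irf3, 0.37 for Irf2 and 0.30 for Irf8. It was 0.00 for Irf1, 0.05 for Irf4 and -0.14 for Irf9.

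The factors also moved together among arrays of one group. Unloaded array 1 was the highest of its group in 5 of 8 factors and unloaded array 2 the lowest in 5. Among loaded cells, array 1 was the highest in 5 factors and array 3 the lowest in 5. Of the 28 pairs of factors, 27 had a positive Pearson correlation of their deviations from the group means over the 8 arrays, with a median of 0.40. The highest were 0.86 for Irf7 with Irf2 and 0.85 for Irf8 with Irf5, and the lowest was -0.05 for Irf4 with Irf3. All pairs share the same 8 arrays and any effect on a whole array: the median correlation of Irf5, Irf2 or Irf8 with all 11608 other genes above background was itself 0.33, and that of Irf3 was 0.05.

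**Figure D3:**
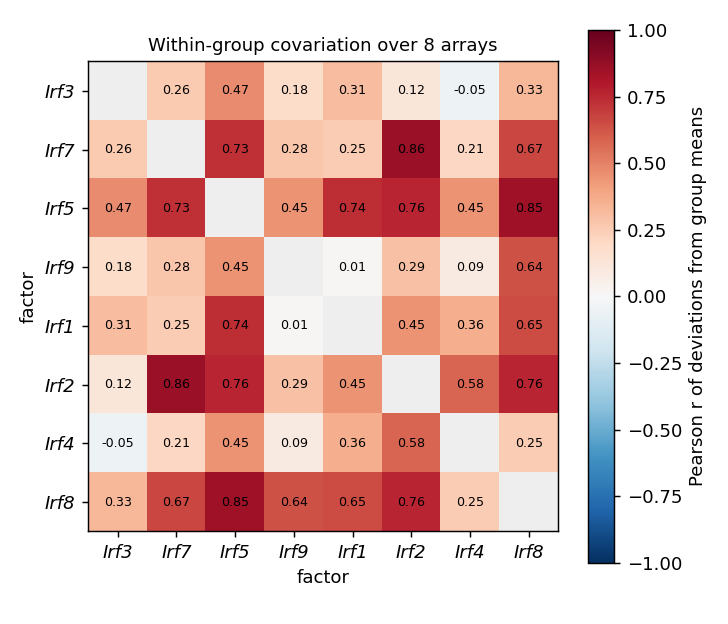
Pearson correlation, over 8 arrays, of the deviations of each pair of factors from their group means; red is positive and blue negative. The darkest squares are those of Irf7 with Irf2 (0.86) and Irf8 with Irf5 (0.85), and no square of Irf3 exceeds 0.47.

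Over all 8 arrays and among 11608 genes above background, the profile most like that of Irf7 was that of Capn1, a calpain subunit (r = 0.990, and 0.96 for deviations from the group means), followed by Bahd1, a chromatin repressor (r = 0.990, and 0.96). For Irf5 they were Galnt10, a glycosyltransferase (r = 0.999), and Psmd3, a proteasome subunit (r = 0.996). Rab11fip5 and the chemokine gene Cxcl14 were nearest to Irf3 (r = 0.994 and 0.992), Creld2 and the guanylate kinase gene Guk1 to Irf2 (0.997 and 0.992), and Sri and Rnpep to Irf8 (both 0.996). Arhgap21 and Kdm4a were nearest to Irf1 (0.946 and 0.930), and Gpr65 and Ctbs to Irf9 (0.974 and 0.969). No gene of the pathway lists and no other factor was among these 14. The lists hold only 154 of the 19938 genes, so nothing is read from that absence. The r values are high in part by choice, as the highest among 11608 genes, and those over all 8 arrays include the difference between the groups. All of these correlations describe the same 8 arrays.

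The promoters of 4 factors are shown because they carry the letters that interferon signals are known to use, or, in Irf7, lack them in this window. They are the 250 bases before a transcription start in RefSeq (mouse build GRCm38.p6), read 5′ to 3′ along the gene. Capitals mark matches to any of 3 motifs. The core of the interferon-stimulated response element, which IRF proteins bind, was searched as GAAA and GAAA with 2 bases of any kind between them. The gamma-activated sequence, an element of genes that interferon-gamma induces, was searched as TTC and GAA with 3 bases between, and the composite site of PU.1 with IRF4 or IRF8 as GGAA and GAAA with 2 bases between.
Irf1, chr11:53769764-53770013, plus strand: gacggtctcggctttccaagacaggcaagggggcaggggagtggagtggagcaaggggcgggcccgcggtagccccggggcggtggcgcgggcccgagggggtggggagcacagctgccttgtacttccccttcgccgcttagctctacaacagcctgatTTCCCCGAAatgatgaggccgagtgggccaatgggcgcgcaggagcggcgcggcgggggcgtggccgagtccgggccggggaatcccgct
Irf2, chr8:46739495-46739744, plus strand: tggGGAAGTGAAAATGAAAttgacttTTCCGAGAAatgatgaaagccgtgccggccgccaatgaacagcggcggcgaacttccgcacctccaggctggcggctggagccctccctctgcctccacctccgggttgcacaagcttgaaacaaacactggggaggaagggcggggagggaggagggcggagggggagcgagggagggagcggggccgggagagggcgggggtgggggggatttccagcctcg
Irf8, chr8:120736108-120736357, plus strand: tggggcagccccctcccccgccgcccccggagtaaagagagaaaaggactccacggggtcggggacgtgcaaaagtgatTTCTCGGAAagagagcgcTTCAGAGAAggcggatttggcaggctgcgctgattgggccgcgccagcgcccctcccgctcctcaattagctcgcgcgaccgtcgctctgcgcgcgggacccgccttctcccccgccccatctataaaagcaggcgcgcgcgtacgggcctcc
Irf7, chr7:141266425-141266674, minus strand: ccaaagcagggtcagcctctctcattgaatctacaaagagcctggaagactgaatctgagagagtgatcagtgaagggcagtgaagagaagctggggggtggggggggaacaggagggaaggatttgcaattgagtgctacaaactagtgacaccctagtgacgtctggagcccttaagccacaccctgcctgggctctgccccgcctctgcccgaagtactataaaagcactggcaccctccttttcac

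The search covered both strands of 250 bases before and 50 after each of 11 start sites of the 8 factors. The gamma-activated sequence was found in 3 of the 11 windows, those of Irf1, Irf2 and Irf8, and in 8.3% of all 32851 windows. In Irf1 it reads TTCCCCGAA and begins 90 bases before the start, and Irf8 has a pair, TTCTCGGAA and TTCAGAGAA, that begin 171 and 153 bases before it. The response element was found in Irf2, as GAAAATGAAA 241 bases before the start, and in 3.44% of all windows. There it overlaps the composite site GGAAGTGAAA, which 2.72% of all windows hold. Of the 5 factors that were higher with acLDL, Irf2 and Irf8 hold at least one of these motifs, and Irf7, Irf5 and Irf3 hold none in the windows searched. A match is a run of letters, not a measured site.

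Upstream of the factors, genes of sensing and signalling went both ways. Of 26 measured sensors, adaptors and kinases 7 rose and 4 fell in limma, with a median log2 difference of 0.05. This count and those of the lists that follow stand beside the 12.9% of all genes called higher and the 10.5% called lower. Dhx58, a RIG-I-like protein and itself interferon-inducible, rose by 0.55 ± 0.08, Tlr7, the endosomal receptor for single-stranded RNA, by 0.42 ± 0.09, and Mavs, the mitochondrial adaptor of the RIG-I pathway, by 0.37 ± 0.06 (log2, SE; limma adjusted p = 0.00026, 0.00329 and 0.000417). Mavs read 8.10, 8.09, 8.14 and 8.19 in unloaded and 8.48, 8.49, 8.52 and 8.50 in acLDL cells.

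Tbk1, a kinase that phosphorylates IRF3 and IRF7, went the other way. It read 9.40, 9.28, 9.27 and 9.42 in unloaded and 8.83, 8.91, 8.71 and 8.84 in acLDL cells. The groups lay apart, and Tbk1 fell by 0.52 ± 0.07 (log2, SE; limma adjusted p = 8.77e-05). Ikbke, another kinase of the list, differed by 0.17 ± 0.07 and did not pass (limma adjusted p = 0.105). Other list members, named after their values were seen, were Irak1 and Myd88, which serve IRF5 and IRF7 in the Toll-like receptor pathway and rose by 0.35 and 0.24, and Ticam2 and Tirap, adaptors of Tlr4, which fell by 0.31 and 0.26 on the log2 scale. The Myd88 call was lost without any one of unloaded arrays 2, 3 and 4 or acLDL arrays 1 and 2 (limma adjusted p up to 0.0923), and with the span trend removed (0.158). It was also lost with each array centred on its median and with unloaded arrays 1 and 4 alone (limma adjusted p = 0.0677 and 0.164). Tirap missed the threshold with unloaded arrays 2 and 3 alone (limma adjusted p = 0.101). With unloaded arrays 1 and 4 alone, 4 of the 26 rose in place of 7.

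Of 23 measured genes of interferons, their receptors and the JAK and STAT proteins, 2 rose and 0 fell in limma, and the median was 0.04. Ifnb1, the interferon-beta gene, was below background on all 8 arrays, at 5.36 ± 0.03 in unloaded and 5.45 ± 0.15 in loaded cells (log2, SD, n = 4), as was Ifng. Of the measured interferon-alpha genes, Ifna5 was above background on 8 arrays, Ifna2 on 2 and Ifna4 on 0. They differed by 0.01, 0.11 and 0.06 and did not pass. Of the 2 chains of the type I interferon receptor, Ifnar2 rose by 0.33 ± 0.08 (log2, SE; limma adjusted p = 0.00753) and Ifnar1 differed by 0.04 ± 0.07, which did not pass. Ifnar2 missed the threshold with unloaded arrays 1 and 4 alone (0.20, limma adjusted p = 0.0559). The other rise was in Ptpn6, the phosphatase SHP-1, by 0.38 ± 0.06. Stat2, the partner of Irf9, stood at 8.01 in both groups (95% interval of the difference up to 0.15).

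Downstream, 17 of 42 measured genes that type I interferon induces rose and 2 fell in limma, where 12.9% of all genes were higher and 10.5% lower, and the median was 0.10. The 4 that rose the furthest were Cmpk2, Ifit1, Ifit3 and Ifit2. Cmpk2, a mitochondrial nucleotide kinase, read 6.73, 6.56, 6.56 and 6.46 in unloaded and 7.52, 7.43, 7.46 and 7.80 in acLDL cells, a rise of 0.97 ± 0.09 (log2, SE; limma adjusted p = 5.44e-06).

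Ifit1, whose product binds foreign RNA, read 6.75, 6.25, 6.50 and 6.25 in unloaded and 7.45, 7.40, 7.38 and 7.29 in acLDL cells. In unloaded cells the mean of Ifit3 lay below background, at 5.25, and that of Ifit2 at it, at 6.12, so their sizes may be understated. Ifit3 was above background on only 3 of the 8 arrays. Further list members, named after their values were seen, were the membrane protein genes Ifitm3 and Bst2, which block virus entry and release and rose by 0.75 and 0.45, and Rtp4 and Oasl1, which rose by 0.68 and 0.58. The 2 that fell were Parp9 and Trim21, by 0.42 and 0.25 on the log2 scale. The Trim21 call was lost without any one of unloaded arrays 1, 2 and 4 or acLDL arrays 1, 2 and 3 (limma adjusted p up to 0.146), and both missed the threshold with unloaded arrays 2 and 3 alone (0.0511 for Parp9 and 0.29 for Trim21). Trim21 also missed it with arrays weighted in the fit and after median centring (limma adjusted p = 0.0573 and 0.0569). Most of the list, 23 of 42, passed in neither direction, Usp18, Oas2 and Oas3 among them at differences of 0.10, 0.08 and 0.06.

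Of 26 measured genes that interferon-gamma induces, many through IRF1, 4 rose and 2 fell in limma, near the 12.9% and 10.5% of all genes, and the median was -0.06. The 4 that rose were all proteasome genes, Psmb10 and Psmb8 of the immunoproteasome core (0.67 ± 0.07 and 0.51 ± 0.09, log2, SE) and Psme2 and Psme1 of its activator (0.47 ± 0.08 and 0.28). Their limma adjusted p were 2.23e-05 for Psmb10, 0.000896 for Psmb8 and 0.000676 for Psme2, and Psme1 was named after its value was seen. Psmb9, another proteasome gene of the list, differed by 0.08 and did not pass (limma adjusted p = 0.4). The guanylate-binding protein genes Gbp3 and Gbp9 and the chemokine gene Cxcl9 differed by -0.12, -0.09 and -0.13 and did not pass. With unloaded arrays 1 and 4 alone Gbp3 passed as lower (-0.28, limma adjusted p = 0.0102). Nos2 fell by 0.33 ± 0.07 from a level below background, and B2m, also named after its value was seen, fell by 0.29 on the log2 scale. Another 8 list members, Gbp2 and Irgm2 among them, had no probe set naming them alone and were not analysed here.

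Of 19 measured partners and corepressors of the factors, 11 rose and 2 fell in limma, where 12.9% of all genes and 19.7% of those above background were higher. Their median was 0.20, and 7 rose without acLDL array 1 or after each array was centred on its median. Ets2, an ETS-family factor, rose by 0.70 ± 0.08, Junb by 0.48 ± 0.08 and Rela, an NF-kB subunit, by 0.43 ± 0.07, while Jun fell by 0.47 ± 0.08 (log2, SE; limma adjusted p from 4.78e-05 for Ets2 to 0.00119 for Jun). Named after their values were seen, Spi1, which encodes PU.1, rose by 0.28, the 3 corepressor genes of IRF2, Irf2bp1, Irf2bp2 and Irf2bpl, by 0.27, 0.20 and 0.37, and Rel fell by 0.41 on the log2 scale. The Irf2bp2 call was lost without any one of unloaded arrays 3 and 4 or acLDL arrays 1 and 4 (limma adjusted p up to 0.0886), those of Irf2bp2 and Irf2bp1 with the span trend removed (0.129 and 0.0621), and that of Spi1 with unloaded arrays 1 and 4 alone (0.0587). Irf2bp2 also missed the threshold after median centring (limma adjusted p = 0.0789). With unloaded arrays 1 and 4 alone its value was 0.0712, and with unloaded arrays 2 and 3 alone 0.0502.

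Of 10 cytokine genes that IRF5 promotes, 3 rose and 1 fell in limma, with a median of 0.05. Il1a read 7.25, 6.88, 7.08 and 6.94 in unloaded and 8.26, 8.30, 8.24 and 7.89 in acLDL cells, a rise of 1.14 ± 0.10 (log2, SE; limma adjusted p = 4.49e-06), and Ccl5 and Tnf rose by 0.85 ± 0.09 and 0.51 ± 0.08. Il12b, Il12a and Il23a, subunits of the cytokines most tied to IRF5, had means below background and differed by -0.13, -0.01 and -0.15, which did not pass. Il12b was above background on 3 arrays and Il23a on 1. With unloaded arrays 1 and 4 alone Il12b passed as lower (-0.41, limma adjusted p = 0.0346). Il6 fell by 0.21 ± 0.06 at a level below background, a call lost when either of unloaded arrays 1 and 2 or any of acLDL arrays 1, 2 and 4 was left out (limma adjusted p up to 0.0833). With unloaded arrays 1 and 4 alone the Il6 call was lost too (limma adjusted p = 0.0974).

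Of 16 genes of alternative activation, the state for which mouse macrophages need IRF4, 5 rose and 3 fell in limma, and the median was 0.00. Clec10a, a lectin gene, rose by 1.10 ± 0.10 and Arg1 by 0.59 ± 0.08, both from below background, and Clec7a, the beta-glucan receptor gene, and Retnla fell by 0.66 ± 0.06 and 0.32 ± 0.07 (log2, SE; limma adjusted p from 3.54e-06 for Clec7a to 0.00453 for Retnla). The Retnla level was below background in both groups.

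**Figure D4:**
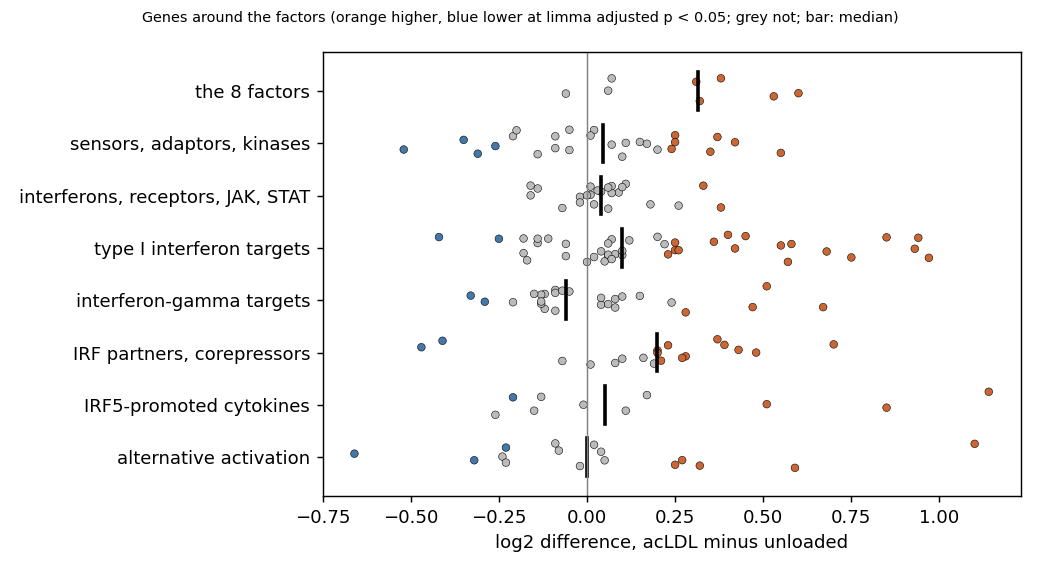
Log2 difference, acLDL minus unloaded, of each measured gene of the 7 lists and of the 8 factors. Each point is a gene, coloured orange where it was higher and blue where it was lower in limma and grey where it did not pass, and black bars are medians; heights within a line are random. The factors and their partners have medians of 0.31 and 0.20, and the other lists lie between -0.06 and 0.10.

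Of 68 measured markers of other cells, 24 had means above background, and the lists of fibroblasts and of plasmacytoid dendritic cells held the most of them. Of 9 measured markers of B and plasma cells 1 had a mean above background, Mzb1, and Cd79a, Ms4a1 and Pax5 were below it. Blk, the B-cell marker with the smallest p, fell by 0.30, a call lost when any one of 4 arrays was left out (unloaded 3 or 4, acLDL 2 or 4, limma adjusted p up to 0.0919). The Blk call was also lost with unloaded arrays 1 and 4 alone and with the span trend removed (limma adjusted p = 0.111 and 0.0555). Of 10 markers of conventional dendritic cells 3 were above background and none passed. Among 8 markers of plasmacytoid dendritic cells, 6 had means above background, and Siglech and Ccr9 were below it. Lair1, the brightest, which macrophages express too, rose by 0.39.

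Of 11 markers of T and NK cells 3 were above background and Cd28, the brightest, fell by 0.32. Of 10 neutrophil markers 1, S100a8, was above background, and 3 fell, Ly6g with the smallest p. Of 10 markers of eosinophils, mast cells and basophils 2 were above it, and Siglecf, the brightest, fell by 0.60, whereas Epx and Prg2 were below background.

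Fibroblast RNA was plainly present. Of 10 markers of mesothelial cells and fibroblasts 8 had means above background. Dcn stood at 10.74 ± 0.13 in unloaded and 10.48 ± 0.09 in loaded cells, and Col1a2 at 9.67 ± 0.16 and 9.30 ± 0.05 (log2, SD, n = 4). Both fell, Dcn by a call that was lost without unloaded array 4 or without acLDL array 3 or 4 (limma adjusted p up to 0.0738). The Dcn call was also lost with unloaded arrays 2 and 3 alone (limma adjusted p = 0.157). The other 8 markers passed in neither direction. Of the 10 differences 5 were positive, and their median was 0.01. The mean level of these 10 markers ran from 8.15 to 8.30 on unloaded and from 8.08 to 8.21 on acLDL arrays. That of the 10 macrophage markers ran from 10.19 to 10.33 and from 10.50 to 10.56, and 6 of these 10 rose, Fcgr1 with the smallest p, and 1 fell. Whether these levels bear on the differences of the factors was not tested.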

How the data were processed

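Biotin-labelled total RNA was measured on Affymetrix arrays, per the labels' protocols. The deposited values are log2 expression per probe set, made by the authors with RMA per the submitters' processing notes, its version and settings being unknown here. This method shrinks the differences of dim genes and removes a change common to all genes. Of 35557 probe sets, 23410 were in the annotation, 21789 of them with 1 gene symbol, 1621 with several, and 12147 were not in it and stayed unnamed. Of those with 1 symbol, 21698 matched the RefSeq table of GRCm38.p6 by Entrez identifier and 0 symbols changed. The brightest probe set stood for each of 999 genes with several, leaving 19938 genes.

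Differences (acLDL minus unloaded) were fitted over all genes with limma 3.58.1 in R 4.3.3 (lmFit, eBayes, two-sided, Benjamini-Hochberg over 19938 genes, threshold 0.05). Standard errors are moderated. Whether arrays with equal replicate numbers were paired is not settled, and the main fit treats them as unpaired. Deviations of arrays with equal numbers correlated at 0.11, -0.16, 0.30 and 0.14, too few arrays to decide it. On arrays simulated for this comparison with 19938 genes, limma recovered 90% of genes changed 1.5-fold and 100% of those changed 2-fold, 3-fold or 6-fold, with 10 false calls. Each simulated gene was drawn independently, with its own mean and SD, and 50 genes were changed at each fold. No change below 1.5-fold was simulated, and the differences of Irf5, Irf2, Irf3 and Irf8 were smaller than that. The real arrays shared deviations across genes and had 23.3% of genes called, so these rates need not hold for them. The number of arrays limits the precision. Spans and promoters came from RefSeq; motifs were searched by letters.

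The members and lists were chosen with earlier results of these data known. Named were the 8 members, up to 4 genes per pathway list with the largest called change and those the order of the pathway needed, per list of other cells the gene of smallest p and the brightest, and the 2 genes most like each member above background; further genes are marked where they appear. Genes that did not pass (Gbp3, Gbp9, Cxcl9, Usp18, Oas2, Oas3, Il12a, Il12b, Il23a, Ikbke, Psmb9, Ifna2, Ifna4, Ifna5) and marker genes at background were also named after their values were seen. Python 3.11.15 and matplotlib 3.10.9 drew the figures.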

Additional observations from a re-analysis of the deposited data

Results flagged for a closer look

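In 182 groups of 4 arrays (91 of the named genes, the 8 factors included), 1 array stood apart from its group by Dixon's criterion in 18, or 9.89%, where chance gives about 1 in 20. For the factors, Irf4 read 5.13 on unloaded array 2 against 5.56 to 5.57 on the others, and Irf8 read 9.37 on acLDL array 1 against 9.22 to 9.23. The other low values on unloaded arrays were Ifit2 at 5.80, Psmb10 at 8.08 and Irf2bp1 at 7.24 on array 2 and S100a8 at 6.08 on array 1. Those on acLDL arrays were Zbtb46 at 6.35 on array 2, Parp9 at 7.26 and Tirap at 7.11 on array 3, and Il1a at 7.89, Psmb8 at 8.20 and Oasl1 at 8.13 on array 4. The other high values were Blk at 6.38 and Mzb1 at 6.52 on unloaded array 3, Arhgap21 at 7.95 and Bst2 at 8.91 on acLDL array 1, and Ccl5 at 8.78 and Retnla at 4.13 on acLDL array 4.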

How the results depend on the processing

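Under 19 alternatives, 3 of them chosen after seeing the data (both pairs of unloaded arrays and the span trend), the count of factors called was 5 of 8 except with unloaded arrays 1 and 4 alone, which left 4, without Irf8. Irf4 had no value under the filter on dim genes. The median of the 8 differences ran from 0.26 to 0.36, and from 0.29 to 0.34 when single arrays were left out, with 5 factors called higher and 0 lower each time. Of the 154 genes of the lists, 47 rose and 14 fell; without single arrays 37 to 48 rose and 11 to 16 fell, and with unloaded arrays 1 and 4 alone 23 fell. With the replicate number as a block, the median was 0.31, 5 factors were called and 48 list genes rose and 16 fell; the block changed the call of no factor. Over all alternatives, sensors rose in 4 to 9, partners in 7 to 11, type I targets in 12 to 19 (falling in 0 to 4), alternative activation genes in 2 to 6 (falling in 2 to 5), and signalling genes in 1 to 4 (falling in 0 to 2). Interferon-gamma targets fell in 1 to 5 and IRF5 cytokines in 0 to 2. The causes were not tested. Differences near background, as for Irf4, are limited by signal.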
